A study of Mus musculus with 6 samples.

Results

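The 10 genes described here encode a Janus kinase (Jak2), signal transducers and activators of transcription, or STATs (Stat3, Stat5a, Stat5b, Stat6), inhibitors of the SOCS family (Socs1, Socs2, Socs3, Cish) and the kinase Pim1. They were chosen by name from the measured genes of cytokine signalling through STAT and SOCS proteins, with earlier results of these data known. Every probe set annotated to one of these symbols alone was taken. That gave 12 probe sets for the 10 genes, out of 34760 probe sets and 19937 genes measured. Socs2 and Socs3 each had a second probe set.

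The 6 samples, each 1 Affymetrix array, hold RNA of pre-granulocyte-macrophage progenitors (PreGMs), early myeloid progenitors of the bone marrow. The sort took Kit-positive cells without lineage antigens, Sca1, CD150, CD41, FcγRII or endoglin. Of the female C57BL/6 mice, 3 were labelled Cebpa flox/flox and 3 Cebpa flox/flox;Mx1Cre, so both groups carry the floxed Cebpa gene. Both groups were also given pIC, a double-stranded RNA mimic that elicits interferon, and were taken 18 days later. The Mx1 promoter responds to interferon, so that pIC switches on the Cre recombinase in carriers, in interferon-responsive cells at large and not in PreGMs alone. The labels used here give no ages, and by the design text each genotype had 3 separate mice. The comparison asks how the PreGM transcriptome differs where Cebpa, the gene of the myeloid transcription factor C/EBPα, is targeted for deletion.

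Cytokine receptors without kinase activity of their own carry Janus kinases on their inner tails. A bound cytokine brings the kinases together, they phosphorylate the receptor and the STATs that dock on it, and the STATs pair, enter the nucleus and bind gene promoters. Socs and Cish genes are among the genes that STATs switch on, and their proteins feed back to block the receptor or the kinase. In myeloid progenitors this route serves interleukin-3, GM-CSF, G-CSF, thrombopoietin and interleukin-6.

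Cebpa itself went against the labels. Its log2 level was 6.93, 6.71 and 6.85 in the arrays labelled flox/flox and 8.71, 9.31 and 8.98 in those labelled Mx1Cre, 4.50-fold higher in the latter. Where its probes lie relative to the deleted part was not examined, and the cause of the higher value was not tested. Exchanged labels cannot be told apart from other causes here. Every direction below follows the labels as deposited and would turn if they were exchanged. The medians of the 6 arrays lay between 6.43 and 6.55, and arrays of one label had correlations over genes of 0.992 to 0.995. Of the sort markers, Kit was bright in both groups, at 10.46 ± 0.09 and 10.61 ± 0.08 (SD, n = 3 each). Of the genes for the excluded FcγRII and its relative, Fcgr2b passed as higher (0.43 log2 units) and Fcgr3 as lower (-1.04) in the arrays labelled Mx1Cre. The genes for CD41 (Itga2b, -0.33), CD150 (Slamf1, -0.17) and endoglin (Eng, -0.05) did not pass. Itga2b and Slamf1 did not overlap between the labels, with the lower values in the arrays labelled Mx1Cre. All 5 measured monocyte and macrophage markers (Csf1r, Ly86, Cx3cr1, Adgre1, Mpeg1) passed as higher in the arrays labelled Mx1Cre. Their mean log2 level was between 5.97 and 6.12 in the arrays labelled flox/flox and between 7.83 and 7.98 in the others, and 1 of the 5 lay below the lower quartile of gene levels. Neutrophil markers passed as higher in 1 of 6 cases (3 at an unadjusted limma p under 0.05). Ly6g, which defines mature neutrophils, was dim in both groups. T and NK cell markers were lower in 1 of 7 cases (3 unadjusted) and B cell markers in 0 of 6 (2 unadjusted). Erythroid markers were lower in 0 of 5 (1 unadjusted), megakaryocyte markers in 1 of 5 (3 unadjusted) and stromal markers in 1 of 6 (2 unadjusted). Mast cell and basophil markers went both ways, with 2 of 6 higher and 2 lower. Over all genes 4.91% passed, and 16.4% had an unadjusted limma p under 0.05. The marker lists were chosen with earlier results of these data known. The part of these cell markers in the results below was not tested, and in bulk RNA fewer cells of a type and less RNA per cell cannot be told apart.

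Of the 10 genes, Stat3 and Jak2 were lower in the arrays labelled Mx1Cre at a limma adjusted p under 0.05, and 0 were higher. Over all 19937 genes 4.91% passed, 2.28% as lower and 2.63% as higher. At an unadjusted limma p under 0.05, 4 of the 10 and 16.4% of all genes passed. Brighter genes passed more often. Of the 9968 genes above the median level, fitted alone, 1065 passed and 2508 had an unadjusted limma p under 0.05. That set held 8 of the 10 genes, of which 3 passed and 4 were under 0.05 unadjusted. The 3 values of each label did not overlap for Stat3, Jak2, Pim1 and Socs3, each time with the lower values in the arrays labelled Mx1Cre, and such a separation downwards was seen in 11.0% of all genes (10.5% upwards). The other 6 genes overlapped between the labels. Differences ran from -0.60 to 0.04 log2 units, with a median of -0.16 beside -0.01 over all genes, and 8 of the 10 were below 0, against 53.4% of all genes. All 10 had mean levels above 5.63, the lower quartile of gene means, and no gene was removed for a low level. Values are log2 expression, so a difference of 1 unit is a doubling. The calls of Stat3 and Jak2 both ended when flox/flox replicate 1 or flox/flox replicate 3 was left out, when 0 of the 10 passed (4 at an unadjusted limma p under 0.05 in either case). They also ended when all 34760 probe sets were fitted and adjusted together, again with 0 passing (4 unadjusted), where 0.869% of all probe sets passed.

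**Figure D1:**
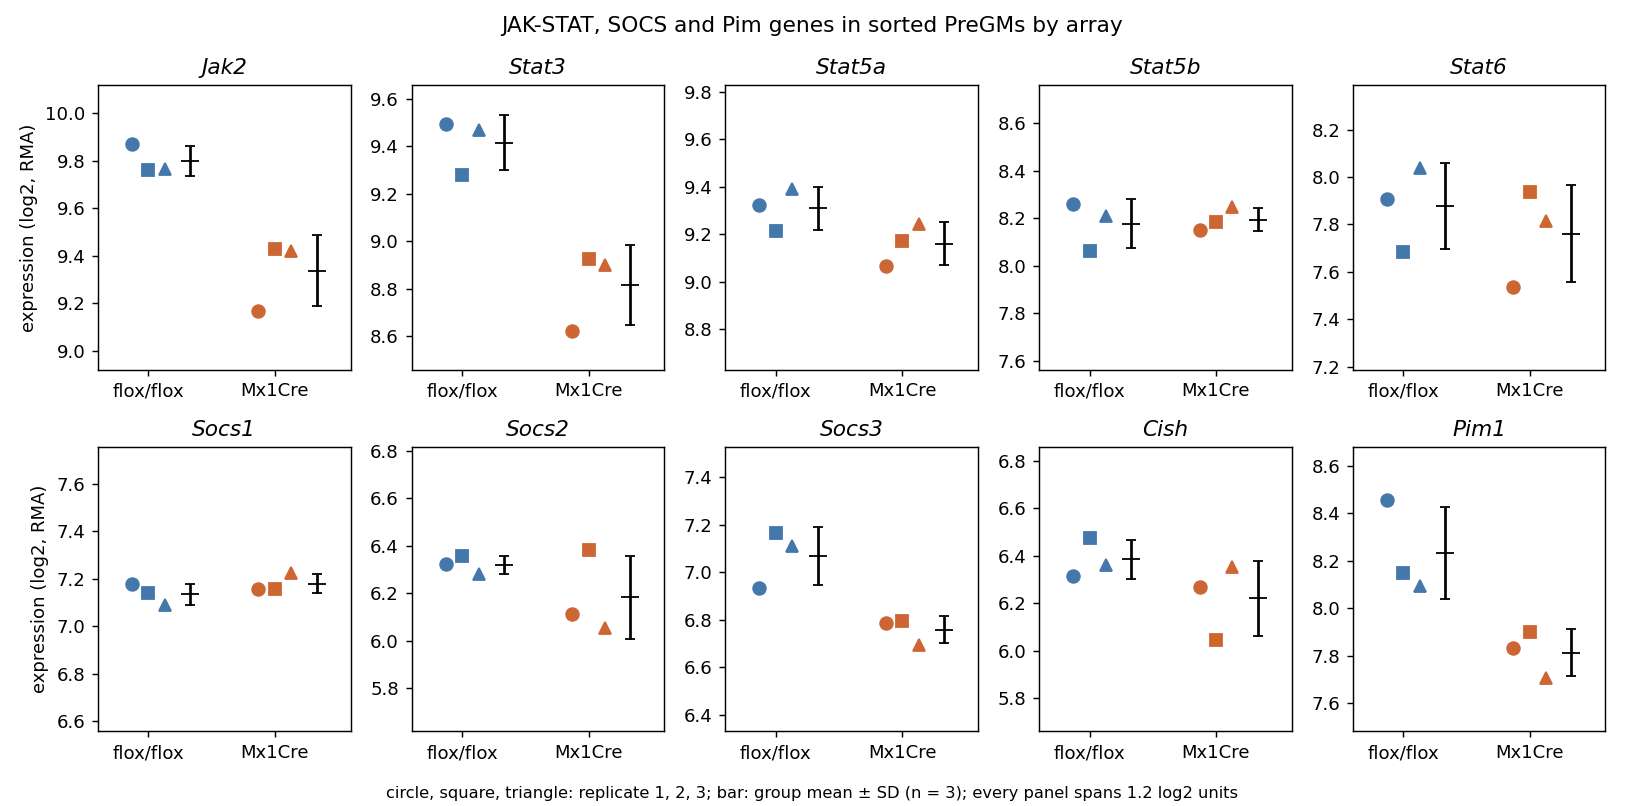
Log2 expression of the 10 genes on each of the 6 arrays, with flox/flox in blue, Mx1Cre in orange, replicates 1 to 3 as circle, square and triangle, and black bars for the group mean ± SD (n = 3). Stat3, Jak2, Pim1 and Socs3 show no overlap between the labels, and the other 6 genes overlap; each panel has its own axis of equal span.

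Jak2, the kinase that serves the receptors for erythropoietin, thrombopoietin, interleukin-3 and GM-CSF, read 9.87, 9.76 and 9.77 in the arrays labelled flox/flox and 9.17, 9.43 and 9.42 in those labelled Mx1Cre. All 3 Mx1Cre values lay below all 3 flox/flox values, with a gap of 0.33 log2 units, and replicate 1 was the lowest of them. Jak2 was thus 1.38-fold lower (-0.46 ± 0.10 log2 units, SE), at a limma adjusted p of 0.0268. With 1 array left out, the call held only without Mx1Cre replicate 2. Such fits also passed fewer genes in all, 538 to 785 beside 979 with every array. Without flox/flox replicates 1, 2 and 3 in turn the limma adjusted p was 0.0989, 0.0584 and 0.0751, and without Mx1Cre replicates 1, 2 and 3 it was 0.0620, 0.0436 and 0.0605. The difference stayed between -0.51 and -0.38 over these fits.

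Stat3, the STAT activated by interleukin-6 and G-CSF, had the largest difference of the 10. It read 9.49, 9.28 and 9.47 in the arrays labelled flox/flox and 8.62, 8.93 and 8.90 in those labelled Mx1Cre. The groups were 0.35 log2 units apart at their nearest values. The mean fell from 9.42 ± 0.12 to 8.82 ± 0.17 (SD, n = 3 each), with a 95% interval of the difference from -0.84 to -0.36 and a limma adjusted p of 0.0120. With 1 array left out the difference ran from -0.67 to -0.50. Leaving out flox/flox replicate 1 gave a limma adjusted p of 0.0526 and leaving out replicate 3 of that label 0.0579, and the other fits gave values down to 0.0182.

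The STAT5 genes, neighbours on chromosome 11 whose products relay interleukin-3, GM-CSF and thrombopoietin signals, did not pass. Stat5a read 9.32, 9.21 and 9.39 in the arrays labelled flox/flox and 9.07, 9.17 and 9.25 in those labelled Mx1Cre, so that only the highest Mx1Cre value reached into the flox/flox range. Its difference was -0.15 log2 units with a 95% interval from -0.36 to 0.06 (limma adjusted p = 0.506). Stat5b read 8.26, 8.06 and 8.21 against 8.15, 8.18 and 8.25, and its difference of 0.02 had an interval from -0.18 to 0.22. The sign of that value turned without flox/flox replicate 2 (-0.04) and without Mx1Cre replicate 3 (-0.01). The paralogues are similar in sequence and their probes may cross-react. The within-array difference between Stat5a and Stat5b was lower on all 3 arrays labelled Mx1Cre than on all 3 labelled flox/flox, by 0.16 log2 units on average, with an exact two-sided permutation p of 0.1, the smallest that 3 against 3 arrays allow. Stat6, which relays interleukin-4 and interleukin-13, read 7.91, 7.68 and 8.04 against 7.54, 7.94 and 7.81. Its groups overlapped widely and its interval, from -0.40 to 0.17, was the broadest of the 10.

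Among the feedback inhibitors Socs3, which binds the gp130 and G-CSF receptor chains and blocks the kinase there, was separated between the labels without passing. Its probe set read 6.93, 7.17 and 7.11 in the arrays labelled flox/flox and 6.79, 6.79 and 6.69 in those labelled Mx1Cre. Socs3 differed by -0.31 ± 0.09 log2 units (SE), with an unadjusted limma p of 0.00765 and an adjusted p of 0.102. The second Socs3 probe set, annotated through 1 older sequence record alone, was dimmer, at 5.87, 5.88 and 5.90 against 5.99, 5.80 and 5.89, and differed by 0.01. The mean of both probe sets differed by -0.15 (limma adjusted p = 0.450). With array weights Socs3 passed, at -0.35 (limma adjusted p = 0.0384).

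Socs1, an inhibitor of interferon signalling that binds the kinase itself, varied little, reading 7.18, 7.14 and 7.09 against 7.15, 7.16 and 7.22. Its difference of 0.04 had a 95% interval from -0.14 to 0.23. Socs2, which restrains growth hormone signalling, read 6.32, 6.35 and 6.28 in the arrays labelled flox/flox and 6.11, 6.38 and 6.05 in those labelled Mx1Cre. The Mx1Cre arrays spread over 0.33 log2 units, from below to above the flox/flox arrays, which spread over 0.08. Its second probe set differed by -0.11, beside -0.14 for the first, with neither passing. Cish, an inhibitor that STAT5 induces, read 6.32, 6.48 and 6.36 against 6.27, 6.04 and 6.35. Its difference was -0.16 with an interval from -0.39 to 0.07 (limma adjusted p = 0.514). The within-array difference between Socs2 and Cish did not separate the labels (0.03 log2 units, exact two-sided permutation p = 1).

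Pim1, a serine/threonine kinase whose gene STAT3 and STAT5 induce and which promotes survival, read 8.46, 8.15 and 8.09 in the arrays labelled flox/flox and 7.83, 7.90 and 7.71 in those labelled Mx1Cre. The groups were separated by 0.19 log2 units, and flox/flox replicate 1 stood above the other 5 arrays. Pim1 differed by -0.42 ± 0.11 log2 units (SE), with a limma adjusted p of 0.0664. Pim1 passed among the genes above the median level (limma adjusted p = 0.0430) and with array weights (0.0306), in a range over the alternatives up to 0.232.

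**Figure D2:**
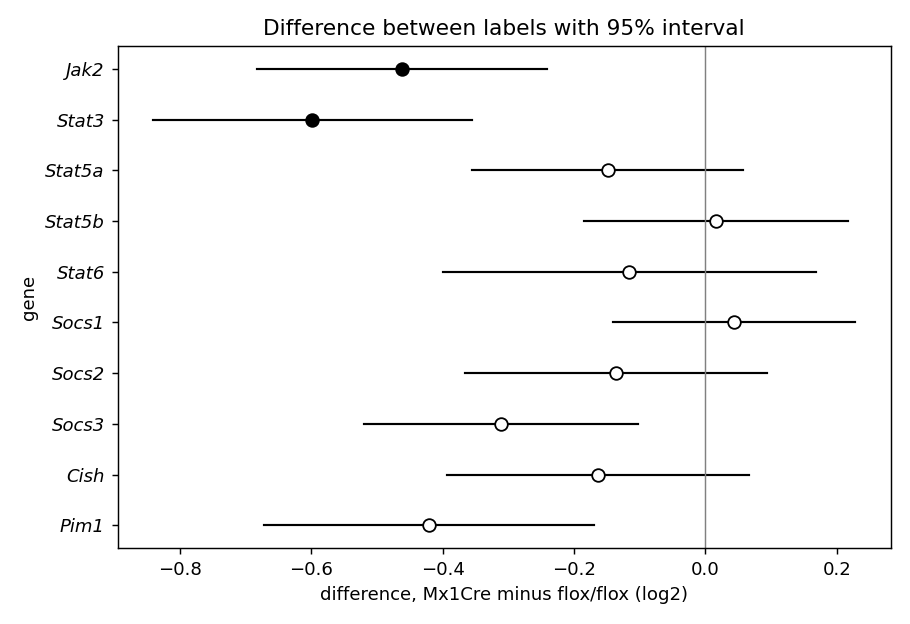
Difference between labels (Mx1Cre minus flox/flox, log2 units) for each of the 10 genes, with the 95% interval from limma as a line and a filled point where the adjusted p was under 0.05. Stat3 and Jak2 are filled, and the intervals of Socs3 and Pim1 lie below 0 without passing the adjustment.

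Mx1Cre replicate 1 held the lowest value of the 6 arrays for 4 of them (Stat3, Stat5a, Stat6, Jak2), and was lowest for 19.5% of all genes. Flox/flox replicate 1 held the highest value for 4 (Stat3, Stat5b, Pim1, Jak2), against 19.9% of all genes. By the distance between gene-centred profiles over the 6 arrays, the genes nearest to Stat3 were Gprc5b, Rspry1 and A630072M18Rik, at 0.112 to 0.147, with differences of -0.64, -0.56 and -0.61 log2 units. Those nearest to Jak2 were Phospho2, Paqr8 and Manea, at 0.0721 to 0.0888, with differences of -0.49, -0.45 and -0.43, of which Manea did not pass (limma adjusted p = 0.0516). These 6 are described by likeness over 6 arrays in 2 groups, so that any gene with a like difference can come near.

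Promoter windows from RefSeq on build GRCm38.p6, each 300 bases long with 250 before the transcription start, were at hand for 9 of the 10 genes, in 12 windows. They were searched for TTCNNNGAA, the spacing bound by STAT3 and STAT5, and for TTCNNNNGAA, the spacing preferred by STAT6, each of which reads the same on both strands. TTCNNNGAA was present in 2 of the 12 windows, those of Socs3 and Cish, and in 8.30% of 32851 windows of all genes. TTCNNNNGAA was in 0 of the 12 and in 6.95% of all windows. The windows of Stat3 (chr11:100939491-100939790, minus strand) and Jak2 (chr19:29251553-29251852, plus strand) are shown because these genes passed. Those of Socs3 (chr11:117969317-117969616, minus strand) and Cish (chr9:107296409-107296708, plus strand) are shown for their matches, in capitals.
Stat3: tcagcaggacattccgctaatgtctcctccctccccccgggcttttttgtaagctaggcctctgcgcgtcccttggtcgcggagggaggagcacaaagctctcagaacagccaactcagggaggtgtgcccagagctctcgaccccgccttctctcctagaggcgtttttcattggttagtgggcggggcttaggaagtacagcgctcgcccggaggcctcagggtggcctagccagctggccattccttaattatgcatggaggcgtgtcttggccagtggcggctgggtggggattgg
Jak2: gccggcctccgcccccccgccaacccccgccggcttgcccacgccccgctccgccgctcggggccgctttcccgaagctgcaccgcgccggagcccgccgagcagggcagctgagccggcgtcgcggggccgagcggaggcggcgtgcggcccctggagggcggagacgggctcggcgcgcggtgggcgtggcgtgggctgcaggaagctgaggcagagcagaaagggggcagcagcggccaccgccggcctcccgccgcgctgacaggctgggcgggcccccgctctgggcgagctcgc
Socs3: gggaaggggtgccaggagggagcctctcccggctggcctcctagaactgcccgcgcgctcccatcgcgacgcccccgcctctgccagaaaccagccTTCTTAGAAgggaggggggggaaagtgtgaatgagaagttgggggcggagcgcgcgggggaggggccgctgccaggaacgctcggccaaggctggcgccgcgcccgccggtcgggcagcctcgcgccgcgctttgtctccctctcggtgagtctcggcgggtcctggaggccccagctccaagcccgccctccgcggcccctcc
Cish: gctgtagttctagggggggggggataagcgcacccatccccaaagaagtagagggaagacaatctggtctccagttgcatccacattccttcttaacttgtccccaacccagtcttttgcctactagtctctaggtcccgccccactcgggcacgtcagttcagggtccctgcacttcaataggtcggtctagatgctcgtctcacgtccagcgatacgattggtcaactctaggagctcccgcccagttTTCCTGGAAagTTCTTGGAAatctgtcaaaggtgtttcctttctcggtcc
The Socs3 match, TTCTTAGAA, begins 154 bases before the start. Cish has a tandem pair, TTCCTGGAA from the first transcribed base and TTCTTGGAA from base 12. Socs3 was separated between the labels and Cish was not, while the windows of Stat3, Jak2 and Pim1 held neither motif. A match is a description of letters, not a bound site. The Jak2 and Socs3 windows were rich in G and C, at 81.0% and 73.3%, beside 60.7% for Stat3, 53.3% for Cish and a median of 52.7% over all windows.

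The rest of the pathway was described through 8 lists, of which 88 of 94 genes had a row. Of these 88, 9 were higher and 5 lower in the arrays labelled Mx1Cre, or 15.9%, beside 4.91% of all genes. Without flox/flox replicate 1 or replicate 3 the count was 9 or 8, and it was 6 with all probe sets fitted. The median difference over the 88 was 0.0035 log2 units, beside -0.01 over all genes. The lists were chosen with earlier results of these data known, so the share of 15.9% is a description and not a test.

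**Figure D3:**
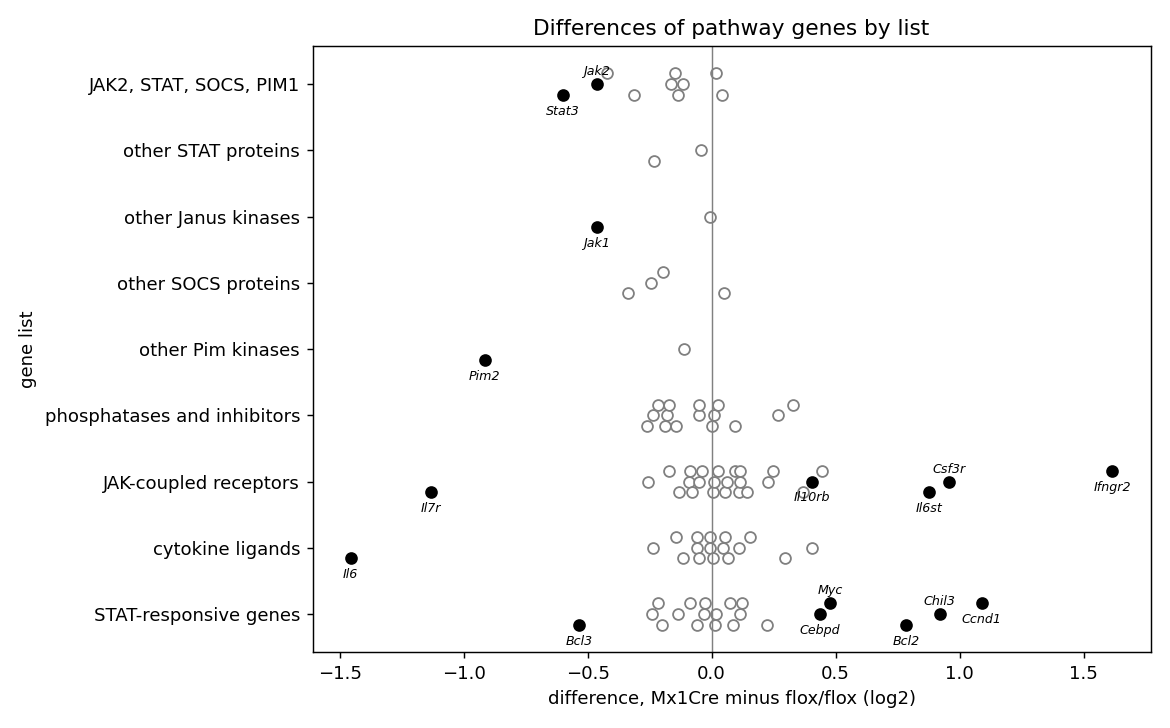
Difference between labels (Mx1Cre minus flox/flox, log2 units) for each gene of the pathway by list, with filled, named points where the limma adjusted p was under 0.05. Passing kinases, STAT and Pim genes lie below 0, 4 of 5 passing receptors and 5 of 6 passing STAT-responsive genes above it.

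Of the other Janus kinases, Jak1, which pairs with gp130 and interferon receptors, was lower and Tyk2 was not. Jak1 read 11.27, 10.99 and 11.13 in the arrays labelled flox/flox and 10.62, 10.69 and 10.69 in those labelled Mx1Cre, without overlap. Its difference of -0.46 ± 0.10 log2 units (SE, limma adjusted p = 0.0236) was close in size to that of Jak2. The call of Jak1 ended (limma adjusted p up to 0.0881) when any array but flox/flox replicate 2 was left out. It also ended with all probe sets fitted (limma adjusted p = 0.120). Tyk2 differed by -0.01. Of the other STAT genes Stat2 and Stat4 differed by -0.23 and -0.04 without passing. Pim2, a kinase related to Pim1, was 1.89-fold lower. It read 7.40, 7.15 and 7.64 against 6.39, 6.36 and 6.69, with a limma adjusted p of 0.00398, which was 0.0600 with all probe sets fitted. Pim3 did not pass (-0.11).

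Of 4 other SOCS genes and 15 phosphatase, adaptor and inhibitor genes 0 passed with limma. At an unadjusted limma p under 0.05 there were 2 and 4, beside 16.4% of all genes. Socs6 and Socs5 were the nearest of the first, at -0.34 and -0.24 log2 units. Both had limma adjusted p-values of 0.151 and no overlap between the labels. With 1 array left out the Socs6 difference ran from -0.44 to -0.26 (limma adjusted p up to 0.371). Under the other alternatives, which keep every array, it came as near 0 as -0.12, with limma adjusted p-values up to 0.669. Of the second list Sh2b3, the adaptor LNK that restrains Jak2 in blood progenitors, was separated upwards, at 7.22, 7.35 and 7.18 against 7.60, 7.63 and 7.52. Its difference of 0.33 had a limma adjusted p of 0.0669, and it passed in both sets without dim genes (0.0473 and 0.0368). Ptprc, the phosphatase CD45, differed by -0.26 (limma adjusted p = 0.139).

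Of 27 measured receptors that use Janus kinases, 4 were higher in the arrays labelled Mx1Cre, 1 was lower and 22 did not pass, with a median difference of 0.06. Over all genes 2.63% passed as higher and 2.28% as lower. Il6st, the gp130 chain shared by interleukin-6 family cytokines and a route to STAT3, read 7.74, 7.82 and 7.88 against 8.73, 8.80 and 8.55. It was 1.83-fold higher without overlap (limma adjusted p = 0.000692). Ifngr2 (1.62 log2 units) and Csf3r (0.96), chains of the interferon-γ and G-CSF receptors, passed as higher too, and so did Il10rb (0.40), which lies outside the naming rule. Il7r, which signals to STAT5 in lymphoid progenitors, was lower by 1.13 log2 units. The call of Il10rb ended when any array but Mx1Cre replicate 1 was left out (limma adjusted p up to 0.0911). Over 15 alternatives that call ended in 6 (limma adjusted p up to 0.0923). The arrays labelled Mx1Cre had the higher monocyte markers, with a mean log2 level between 7.83 and 7.98 against 5.97 to 6.12. The part of these markers in the receptor values was not tested.

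Of 17 measured cytokine genes Il6 alone passed (5.88%, beside 4.91% of all genes). It read 7.14, 6.48 and 6.93 in the arrays labelled flox/flox and 4.65, 5.73 and 5.81 in those labelled Mx1Cre, 2.74-fold lower with a limma adjusted p of 0.0149. Its spread was wide, 0.34 and 0.65 (SD, n = 3 each), and the call ended without flox/flox replicate 1 or replicate 3 (limma adjusted p 0.0640 and 0.0639). Over 14 alternatives the call of Il6 ended in 3, with limma adjusted p-values up to 0.143.

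Of 21 genes known to respond to STAT proteins, 5 were higher, 1 was lower and 15 did not pass, with a median of 0.02. The shares over all genes were 2.63% higher and 2.28% lower. Ccnd1 (cyclin D1) was higher by 1.09 log2 units, Bcl2, which blocks apoptosis, by 0.78 and Chil3, which interleukin-4 induces through STAT6 in macrophages, by 0.92 from a level below the lower quartile. Myc (0.48) and Cebpd (0.44), outside the naming rule, also passed, Myc narrowly at a limma adjusted p of 0.0487, which was 0.0560 with the replicate number as a block and 0.0637 with arrays centred on their median. Cebpd was at 0.0558 with that centring. With 1 array left out the limma adjusted p reached 0.142 for Myc, 0.118 for Cebpd and 0.108 for Chil3. Myc passed without flox/flox replicate 1 alone, Cebpd without Mx1Cre replicate 1 alone, and Chil3 without flox/flox replicate 2 or Mx1Cre replicate 3. Over all alternatives the limma adjusted p reached 0.206 for Myc, 0.127 for Cebpd and 0.182 for Chil3. Bcl3, a cofactor of NF-κB and a STAT3 target, read 7.24, 7.27 and 7.24 against 6.71, 6.62 and 6.82. It was 1.45-fold lower (limma adjusted p = 0.00719), and 0.0530 with all probe sets fitted.

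**Figure D4:**
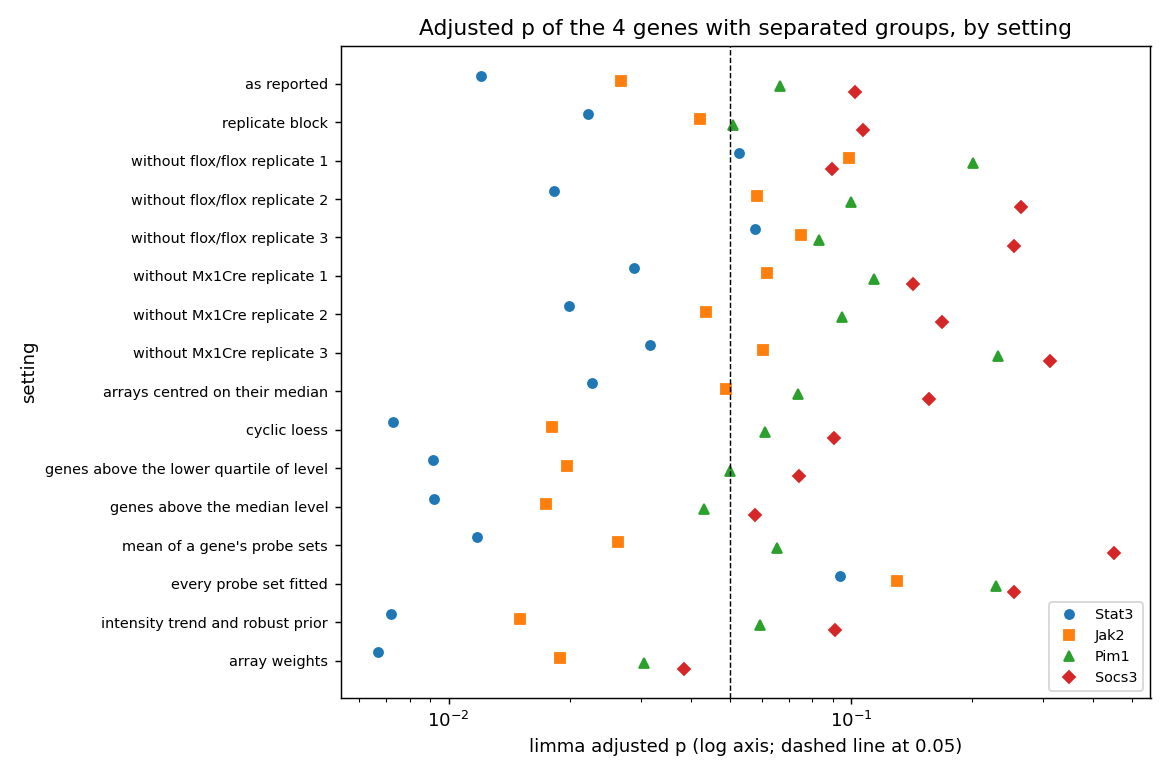
Limma adjusted p (log axis) of Stat3, Jak2, Pim1 and Socs3 as reported and under each of 15 alternatives, with a dashed line at 0.05. Stat3 lies left of the line in all but 3 alternatives, Jak2 in all but 6, while Pim1 crosses it in 2 and Socs3 in 1.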

How the data were processed

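The values are the authors' deposited log2 expression per probe set, made with RMA and the affy software per the submitters' processing notes, with no version stated in the labels. RMA corrects background, normalizes quantiles across arrays and summarises probes, which pulls dim genes together. Per the labels' protocols, 20 ng of RNA was amplified before labelling.

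From these values, probe sets with 1 symbol (21640) were reduced to 19937 genes by taking the probe set with the highest mean; 21553 were found in the RefSeq gene table by Entrez number, and 0 symbols changed. Limma 3.58.1 (R 4.3.3) fitted Mx1Cre minus flox/flox with lmFit and eBayes; p-values were adjusted by Benjamini-Hochberg over all genes and called under 0.05. Figures used Python 3.11.15 and matplotlib 3.10.9. The test was also run on simulated data, and no result given here rests on that run. Precision is limited by the number of arrays.

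The genes and lists were chosen with earlier results of these data known. Beside the 10 genes, the text names called genes of each list (up to 3 per direction), or the 2 of smallest p where none was called, Cebpa, and the 3 profiles nearest to each called gene. Alternatives were a replicate block, each array left out, filters on dim genes, centring, other handling of probe sets, cyclic loess, array weights and an intensity trend. Same-numbered replicates deviated together with correlations of 0.188, 0.0515 and 0.174, beside -0.245 to 0.124 between different numbers. Mx1Cre replicate 2 correlated better with flox/flox replicate 3 (0.124) than with replicate 2 of that label. Replicates share only a number, so the main fit took no pairs, and an alternative took the number as a block.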

Additional observations from a re-analysis of the deposited data

How the results depend on the processing

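Over 15 alternatives, the 10 genes gave 148 values, of which 134 kept their direction and side of the threshold; Socs2 and Cish were not tested among genes above the median level. Stat3 lost its call in 3 alternatives and Jak2 in 6, named in the report. Stat5b turned to -0.04 without flox/flox replicate 2 and to -0.01 without Mx1Cre replicate 3, in leave-one-out values from -0.0413 to 0.0574. Stat4 turned to 0.0684 without flox/flox replicate 2, in leave-one-out values from -0.107 to 0.0684. With 1 array left out, genes passing numbered 538 to 785 of 979, the 10 genes 0 to 2 and the pathway genes 8 to 12 of 14. With every probe set fitted they numbered 244, 0 and 6, and genes at an unadjusted limma p under 0.05 went from 3276 to 2664. Array weights gave 4 of the 10. With the replicate number as a block the numbers were 1089, 2 and 13, and the block ended the call of Myc alone among the named genes; replicates share only a number, and not every array correlated best with its own. Of 399 values of the other 27 named genes, 336 kept their call, 55 lost it, 7 gained it and 1 turned. The causes were not tested.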
